A study of Homo sapiens with 15 samples.

Results

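The active histone marks at 10 genes that define the luminal and basal lineages of the breast were followed across MDA-MB-231 cells, a human triple-negative breast cancer line of the claudin-low type (Par), and its sub-populations LM2 and BrM2. The genes are ESR1, FOXA1, GATA3 and TFAP2C, which encode luminal transcription factors, GRHL2 and EPCAM, which mark epithelial cells in general, the luminal keratin genes KRT8 and KRT18, and KRT5 and FOXC1, which mark basal cells. Their members were the H3K4me3 peaks within 2 kb of any annotated transcript start of a listed gene, 13 of 22572 peaks, and the H3K27ac peaks within 100 kb whose nearest protein-coding start belonged to a listed gene, 74 of 62195 peaks. Each mark was profiled by ChIP-seq in 2 replicates per line, all grown in the same serum medium with no treatment. LM2 was selected in mice for growth in the lung and BrM2 for growth in the brain. With 1 such population per organ, the organ and the history of that population cannot be told apart. Reads in peaks ranged from 3489607 to 9839629 per H3K4me3 library and from 1994996 to 6450028 per H3K27ac library, and replicates of a line differed by more than sampling noise.

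In the mammary gland, luminal cells line the duct and basal cells lie against the basement membrane. Luminal identity is held by transcription factors that act together: FOXA1 opens closed chromatin, GATA3 and TFAP2C bind beside it, and the oestrogen receptor encoded by ESR1 uses the sites they prepare. Basal-like tumours carry FOXC1 and the keratin of KRT5 instead, and claudin-low tumours have lost much of the epithelial programme, in which GRHL2 activates junction genes. H3K4me3 marks active or poised promoters, and H3K27ac marks active promoters and enhancers.

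The label mammary epithelial cell was checked against marker genes. An H3K4me3 peak was found at 8 of 9 epithelial markers, 4 of which are lineage genes of the set (EPCAM, GRHL2, KRT8 and KRT18), and at 6 of 6 mesenchymal markers. The remaining epithelial marker, RAB25, had none, and CDH1, the defining cadherin of epithelia, had 1.70 to 6.81 CPM per kb. CPM are the reads of a peak scaled to the total reads in the peaks of its library, and CPM per kb are divided by the length of the peak. The level summed over the epithelial markers was 355 to 425 CPM in Par, 246 to 343 CPM in LM2 and 439 to 479 CPM in BrM2. For the mesenchymal markers it was 941 to 1096 CPM, 848 to 981 CPM and 961 to 1130 CPM. No peak lay at the 4 leukocyte markers or at the 3 annotated endothelial markers.

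The promoters of ESR1 and FOXA1 are printed first, because H3K4me3 over the canonical start of both differed between lines. Each is the 250 bases before that start, read from the hg19 (GRCh37) reference on the strand of the gene, which is the plus strand for ESR1 and the minus strand for FOXA1. Capitals mark the E-box CACCTG, the site bound by ZEB and SNAIL repressors, or CAGGTG where it lies on the other strand.
ESR1 chr6:152128567-152128816: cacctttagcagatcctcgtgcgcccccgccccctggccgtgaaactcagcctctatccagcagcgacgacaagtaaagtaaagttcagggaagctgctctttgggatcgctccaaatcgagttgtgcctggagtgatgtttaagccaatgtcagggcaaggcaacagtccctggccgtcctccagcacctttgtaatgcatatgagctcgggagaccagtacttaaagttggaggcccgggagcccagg
FOXA1 chr14:38064455-38064704: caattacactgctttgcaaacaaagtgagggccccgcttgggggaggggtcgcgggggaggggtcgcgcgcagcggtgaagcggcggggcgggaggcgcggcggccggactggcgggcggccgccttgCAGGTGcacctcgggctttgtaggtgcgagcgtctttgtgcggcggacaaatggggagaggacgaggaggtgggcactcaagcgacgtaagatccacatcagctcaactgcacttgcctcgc
Both strands were searched for 6 motifs, which were the AP-2 site GCCNNNGGC, the GATA factor site spelled AGATAA, the forkhead site TGTTTAC, the grainyhead core ACCGGT, the E-box CACCTG and the full palindromic oestrogen response element. The E-box was the only one of them in these windows. It occurred 1 time before FOXA1 and 0 times before ESR1. Of 19869 promoter windows of the same length, 17.3% held at least 1 such E-box. The AP-2 letters were in 25.6% of these windows, the GATA letters in 6.56%, the forkhead letters in 2.06%, the grainyhead core in 1.66% and the oestrogen response element in 0.0352%. A match is a run of letters and not a measured site.

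The central 250 bases of a pair of H3K27ac peaks are printed as well, since these had the lowest adjusted p among the H3K27ac peaks of ESR1 and TFAP2C. They lie in an intron of ESR1 and in intergenic sequence past TFAP2C, and both are given on the plus strand of hg19.
ESR1 intronic H3K27ac peak, chr6:152222145-152222394: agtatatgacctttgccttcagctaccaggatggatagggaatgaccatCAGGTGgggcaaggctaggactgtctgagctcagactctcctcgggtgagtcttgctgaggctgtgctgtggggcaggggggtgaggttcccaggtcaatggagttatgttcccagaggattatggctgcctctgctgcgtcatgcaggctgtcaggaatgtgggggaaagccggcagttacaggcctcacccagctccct
TFAP2C distal H3K27ac peak, chr20:55282229-55282478: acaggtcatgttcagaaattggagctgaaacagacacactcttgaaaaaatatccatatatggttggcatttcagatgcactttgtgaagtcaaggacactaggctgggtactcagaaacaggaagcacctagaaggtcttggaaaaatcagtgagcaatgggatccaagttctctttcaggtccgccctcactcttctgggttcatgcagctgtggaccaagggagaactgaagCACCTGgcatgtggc
Each window held 1 E-box and none of the other 5 motifs. Over the centres of all 62195 H3K27ac peaks, 19.4% held an E-box, 12.5% the GATA letters, 10.3% the AP-2 letters, 3.17% the forkhead letters, 0.806% the grainyhead core and 0.0354% the oestrogen response element.

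It was first asked how the promoters stood against each other within a line. Levels are given in CPM per kb for the H3K4me3 peak of each gene with the highest mean count over the 6 libraries. In Par, the order was FOXC1 (mean of both replicates 50.4 CPM per kb), the peak shared by KRT8 and KRT18 (21.2), TFAP2C (15.3), EPCAM (14.4), GATA3 (10.7), FOXA1 (10.6), ESR1 (5.09) and GRHL2 (4.59). TFAP2C and EPCAM overlapped in their replicates and both lay above FOXA1, while the replicates of GATA3 overlapped those of all 3. In LM2, TFAP2C had a level of 43.5 CPM per kb, and its replicates overlapped those of FOXC1 (50.3). ESR1 came next (28.2), above EPCAM (22.3), FOXA1 (22), the keratin peak (16.3), GRHL2 (7.88) and GATA3 (5.19). EPCAM and FOXA1 overlapped there, as did GRHL2 and GATA3. In BrM2, FOXC1 stood at 50.8 CPM per kb, above TFAP2C (30.2), FOXA1 (29.9) and EPCAM (29.4), which overlapped, and then came the keratin peak (20.7), ESR1 (16.1), GATA3 (10.0) and GRHL2 (6.03). Over the 6 libraries, the FOXC1 peak had more H3K4me3 per kb than 95.7% of all peaks, TFAP2C more than 77.6% and GRHL2 more than 37.8%.

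**Figure D1:**
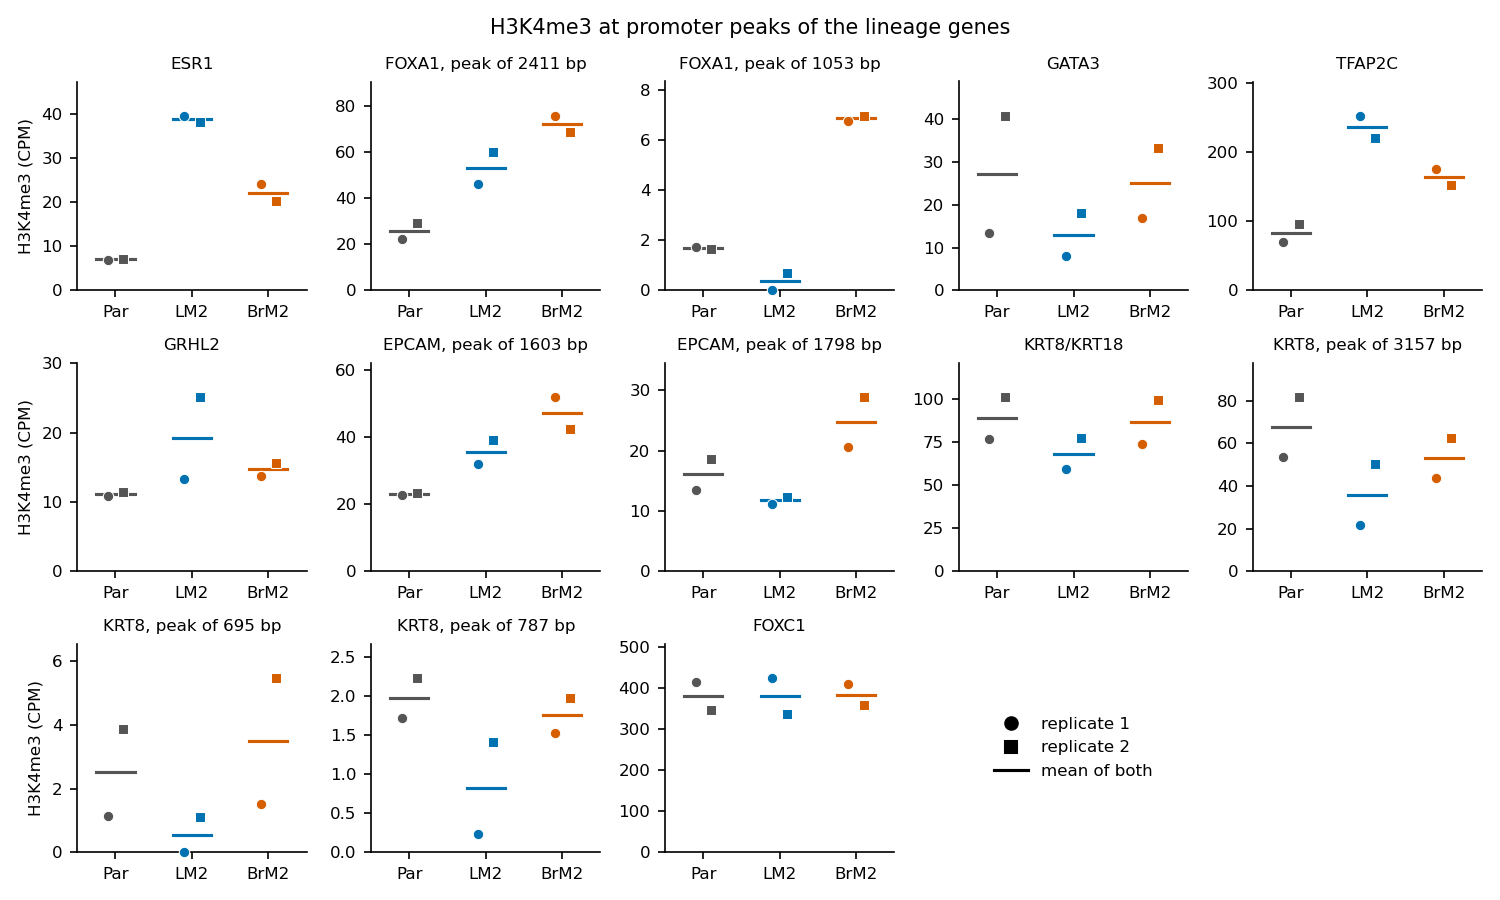
H3K4me3 (CPM, linear axis from 0, a scale of its own in each panel) at the 13 promoter peaks of the lineage genes in Par, LM2 and BrM2. Points are the 2 replicates and bars their mean; ESR1 and TFAP2C are highest in LM2, both FOXA1 peaks are highest in BrM2, and FOXC1 lies between 337 and 424 CPM in all 6 libraries.

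Of the 13 H3K4me3 peaks, 2 were called in LM2 against Par, where 2.51% of all tested peaks were called (DESeq2 Wald test, adjusted p under 0.05), and 2 in BrM2 against Par, where 3.61% were. All 4 calls were higher in the metastatic line. Over all peaks, most calls were higher too, with 411 higher and 112 lower in LM2, and 625 and 175 in BrM2. In BrM2 against LM2, 1 was called, against 3.18% of all peaks. Libraries were paired across lines by replicate number because same-numbered ones deviated together, though the labels give no shared batch or day. Replicate number also went with depth. In every line, replicate 1 had fewer reads in peaks than replicate 2 for H3K4me3 and more for H3K27ac. A shared batch and a shared difference in depth therefore cannot be told apart. In this paired fit, which takes the replicate block as a second term, 6, 4 and 7 of the 13 were called, against 14.4%, 17.7% and 22% of all peaks. The median log2 fold change of the 13 peaks was -0.35 in LM2, 0.40 in BrM2 and 0.37 between both, against 0.02, -0.02 and -0.05 over all peaks. Both metastatic lines are set against the same Par libraries. The study's methods call the replicates biological, but neither they nor the labels say that these were separate cultures, so p-values may measure a technical spread between libraries, and an exact permutation test of 2 against 2 cannot go below p = 0.333.

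ESR1, the gene of the oestrogen receptor, had higher promoter H3K4me3 in both metastatic lines, 5.74-fold in LM2 and 3.07-fold in BrM2. Its peak covers the canonical start (chr6:152128679-152130057, 1379 bp). It had 6.88 and 7.15 CPM in the Par replicates, 39.5 and 38.3 CPM in LM2, and 24.2 and 20.2 CPM in BrM2. The 3 lines did not overlap. It rose by a log2 fold change of 2.52 ± 0.42 (SE) in LM2 (adjusted p = 1.06e-06) and of 1.62 ± 0.43 in BrM2 (adjusted p = 0.00686). The difference between LM2 and BrM2, -0.90 ± 0.39, did not pass the test (adjusted p = 0.287) but passed it in the paired fit (adjusted p = 0.00172). The call in LM2 held without any 1 library, while the call in BrM2 was lost without Par replicate 1, Par replicate 2 or BrM2 replicate 1 (adjusted p from 0.0797 to 0.328).

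The H3K27ac of ESR1 was low and spread over 10 peaks, all of them within the annotated gene. Summed over them, it was 23.9 and 20.4 CPM in Par, 53.5 and 74.5 CPM in LM2, and 46.4 and 61.2 CPM in BrM2, so both metastatic lines lay above Par and overlapped each other. The median log2 fold change of the 10 peaks was 1.64 in LM2 and 1.67 in BrM2, against -0.02 over all peaks in either line. Only 7 of the 10 had enough counts for an adjusted p. An intronic peak, 19496 bp from the nearest transcript start (chr6:152221288-152223253), is the one whose centre is printed above. It had 0.912 and 1.83 CPM in Par, 10.1 and 18.3 CPM in LM2, and 5.35 and 9.52 CPM in BrM2. It rose in both lines, by 3.32 ± 0.67 in LM2 (10.0-fold, adjusted p = 0.000139) and by 2.42 ± 0.70 in BrM2 (5.36-fold, adjusted p = 0.0157). The LM2 call was lost without Par replicate 1 or LM2 replicate 2 (adjusted p of 0.0528 to 0.0886), and the BrM2 call without any 1 of the 4 libraries compared (adjusted p from 0.0776 to 0.323).

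A further intronic peak of ESR1 (chr6:152278347-152280616) had 3.88 and 2.61 CPM in Par, 12.2 and 9.31 CPM in LM2, and 9.69 and 15.0 CPM in BrM2. It rose by 1.90 ± 0.55 in BrM2 (adjusted p = 0.0155). In LM2 it had a log2 fold change of 1.67 ± 0.54 (adjusted p = 0.0511, and 0.0369 in the paired fit). The BrM2 call was lost without 5 of the 6 libraries, all but LM2 replicate 2 (adjusted p from 0.0641 to 0.375). Over the ESR1 promoter itself, H3K27ac was 2.51 and 1.04 CPM in Par, 6.05 and 3.46 CPM in LM2, and 4.84 and 3.01 CPM in BrM2. Its log2 fold changes of 1.35 ± 0.77 and 1.17 ± 0.80 did not pass the test (adjusted p of 0.488 and 0.541). The H3K27ac peak of the gene with the highest mean count over the 6 libraries (chr6:151989570-151990850) had 7.53 and 7.31 CPM in Par, 9.46 and 14.1 CPM in LM2, and 5.61 and 9.52 CPM in BrM2, with log2 fold changes of 0.59 and -0.01 that were not called. The libraries come from bulk cultures, in which fewer cells with a mark and less mark per cell cannot be told apart.

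**Figure D2:**
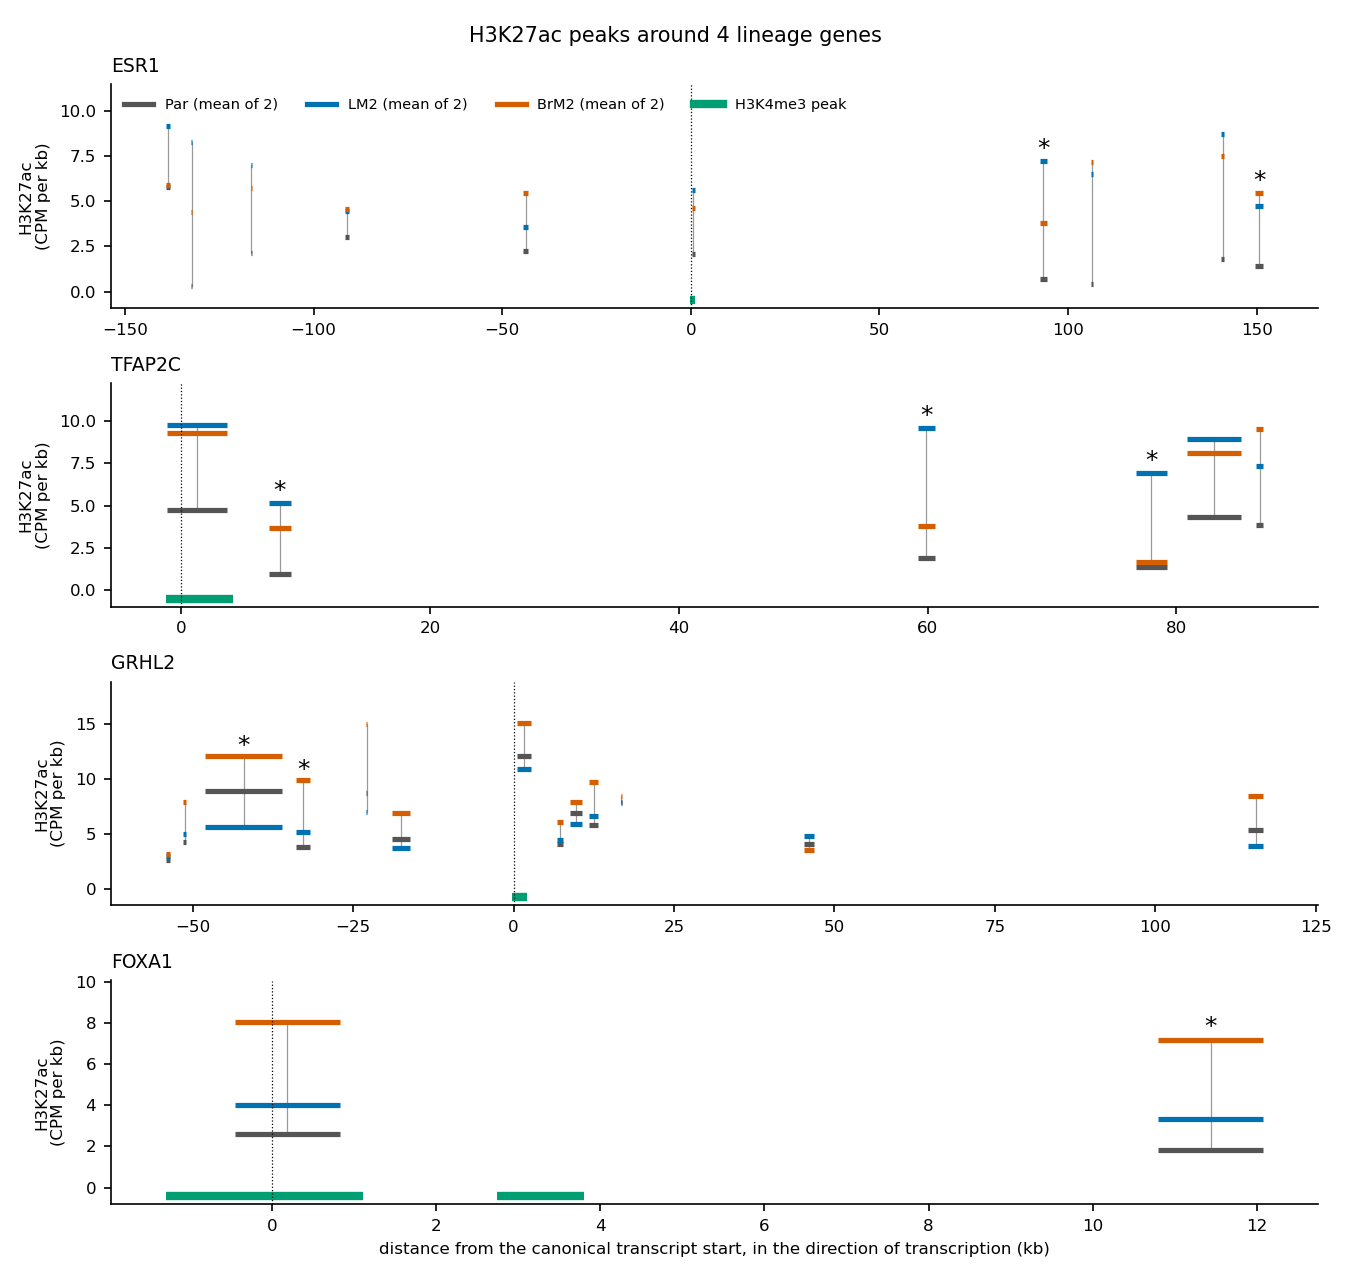
H3K27ac (CPM per kb, mean of 2 replicates, linear axis) in the peaks around ESR1, TFAP2C, GRHL2 and FOXA1, at their distance in kb from the canonical transcript start, in the direction of transcription. Horizontal bars span each peak, green bars are the promoter H3K4me3 peaks, and asterisks mark peaks with an adjusted p under 0.05 in any contrast; the called peaks of ESR1 and TFAP2C lie past the start, and those of GRHL2 before it.

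TFAP2C encodes AP-2 gamma, which binds luminal enhancers with the oestrogen receptor. Its promoter carried a broad H3K4me3 peak (chr20:55203091-55208527, 5437 bp) with 70.8 and 95.5 CPM in Par, 252 and 221 CPM in LM2, and 176 and 153 CPM in BrM2. LM2 lay above BrM2, and BrM2 above Par, with no overlap. The peak rose by 1.57 ± 0.34 in LM2 (2.97-fold, adjusted p = 0.000426). In edgeR the adjusted p was 0.0522, and in DESeq2 without Par replicate 1 or LM2 replicate 1 it was 0.0558 to 0.127. In BrM2 the log2 fold change of 0.95 ± 0.34 (adjusted p = 0.103) passed in the paired fit (adjusted p = 1.07e-08), as did the difference of -0.62 ± 0.33 between BrM2 and LM2 (adjusted p = 0.502, and 6.4e-05 when paired).

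The 6 H3K27ac peaks of TFAP2C summed to 56.6 and 47.0 CPM in Par, 130 and 131 CPM in LM2, and 114 and 89.7 CPM in BrM2. In LM2, 3 of the 6 rose, where 3.63% of all tested peaks were called, and in BrM2 0 of 6 were called, against 5.29%. The paired fit called 5 and 3, against 5.44% and 8.13% of all peaks. The other 156 H3K27ac peaks within 2.5 Mb on each side had a median log2 fold change of 0.13 in LM2 and 0.04 in BrM2. Among these neighbours, 11 were called higher and 0 lower in LM2, and 16 higher and 2 lower in BrM2. With 5 Mb window medians removed, 3 of the 6 were called in LM2. The peak over the last part of the gene (chr20:55211389-55213198) had 1.6 and 1.83 CPM in Par, 10.2 and 8.51 CPM in LM2, and 5.35 and 8.02 CPM in BrM2. It rose by 2.40 ± 0.64 in LM2 (5.26-fold, adjusted p = 0.00936), and in BrM2 the log2 fold change was 1.94 ± 0.67 (adjusted p = 0.062, and 0.049 when paired). The intergenic peak 58293 bp away (chr20:55263583-55264944) had 2.28 and 2.87 CPM in Par, 8.53 and 17.6 CPM in LM2, and 3.82 and 6.52 CPM in BrM2. It rose by 2.27 ± 0.61 in LM2 (4.82-fold, adjusted p = 0.0108). The Par values rest on few reads, 7 and 7 at the peak over the last part of the gene and 10 and 11 at this intergenic peak.

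The peak 75832 bp from the TFAP2C start (chr20:55281122-55283586) separated the metastatic lines. It had 3.88 and 2.87 CPM in Par, 16.1 and 18.1 CPM in LM2, and 4.08 and 4.01 CPM in BrM2. The reads behind these values numbered 17 and 11 for Par, 104 and 68 for LM2, and 16 and 8 for BrM2. LM2 stood apart and BrM2 lay close to Par. It rose by 2.27 ± 0.52 in LM2 (adjusted p = 0.00132), the log2 fold change in BrM2 was 0.26 ± 0.59 (adjusted p = 0.919), and it was lower in BrM2 than in LM2 by -2.01 ± 0.54 (adjusted p = 0.0118). The 3 H3K27ac calls in LM2 were each lost without any 1 of the 4 Par and LM2 libraries (adjusted p from 0.0509 to 0.57), and the difference between BrM2 and LM2 without any 1 of the 4 LM2 and BrM2 libraries (adjusted p from 0.23 to 0.551). The next peak outward (chr20:55285194), with 17.6 and 20.1 CPM in Par, 38.3 and 39.6 CPM in LM2 and 34.9 and 35.6 CPM in BrM2, had log2 fold changes of 0.99 and 0.91 that were called only when paired (adjusted p of 0.0545 and 0.084 unpaired, 0.0151 and 0.0286 paired). The promoter H3K27ac had 29.9 and 16.2 CPM in Par, 51.9 and 43.3 CPM in LM2, and 60.2 and 30.1 CPM in BrM2. Its log2 fold changes of 0.98 and 0.99 also passed only when paired (adjusted p of 0.0105 and 0.0185).

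FOXA1, the pioneer factor of luminal cells, had higher promoter H3K4me3 in BrM2. The peak (chr14:38063340-38065750, 2411 bp) lies within 2 kb of a start of TTC6 as well. It had 22.1 and 29.2 CPM in Par, 46.1 and 60.1 CPM in LM2, and 75.5 and 68.7 CPM in BrM2, with no overlap between the lines. It rose by 1.45 ± 0.34 in BrM2 (2.73-fold, adjusted p = 0.00153). The log2 fold change of 1.08 ± 0.34 in LM2 missed the threshold (adjusted p = 0.0609) and passed in the paired fit (adjusted p = 2.44e-06). LM2 and BrM2 differed by 0.37 ± 0.33 (adjusted p = 0.856, interval of 2 SE from -0.30 to 1.03). The BrM2 call was lost without Par replicate 1, Par replicate 2 or BrM2 replicate 1 (adjusted p from 0.0821 to 0.173).

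A weaker H3K4me3 peak further into FOXA1 (chr14:38060656-38061708) had 1.72 and 1.64 CPM in Par, 0 and 0.711 CPM in LM2, and 6.77 and 6.94 CPM in BrM2. The reads behind these values numbered 6 and 11 for Par, 0 and 7 for LM2, and 31 and 56 for BrM2. It was higher in BrM2 than in LM2 by 3.95 ± 0.93 (adjusted p = 0.00157), a call lost without LM2 replicate 2, BrM2 replicate 1 or BrM2 replicate 2 (adjusted p from 0.0772 to 0.131). Against Par, its log2 fold changes of -1.97 in LM2 and 1.98 in BrM2 did not pass the test (adjusted p of 0.556 and 0.199).

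FOXA1 had 2 H3K27ac peaks with a sum of 8.67 and 2.61 CPM in Par, 8.37 and 10.4 CPM in LM2, and 19.9 and 19.0 CPM in BrM2. BrM2 lay above all other libraries. The intergenic peak past the gene (chr14:38052376-38053662) had 3.42 and 1.31 CPM in Par, 4.03 and 4.52 CPM in LM2, and 10.5 and 8.02 CPM in BrM2. It rose by 1.96 ± 0.65 in BrM2 (3.90-fold, adjusted p = 0.0490), a call lost without any 1 of the 6 libraries (adjusted p from 0.0963 to 0.646). At the promoter, H3K27ac was 5.25 and 1.31 CPM in Par, 4.34 and 5.85 CPM in LM2, and 9.43 and 11 CPM in BrM2, with a log2 fold change of 1.62 ± 0.64 in BrM2 that did not pass the test (adjusted p = 0.13). The region around FOXA1 was lower in LM2: the other 33 H3K4me3 peaks within 2.5 Mb on each side had a median log2 fold change of -0.46 and the other 58 H3K27ac peaks one of -0.60. With the median of each 5 Mb window removed, the promoter H3K4me3 of FOXA1 in LM2 had an adjusted p of 0.000881, while the intergenic H3K27ac peak in BrM2 was no longer called (log2 fold change 1.92, adjusted p = 0.0693). That call was also lost with loess offsets (0.0519) and without independent filtering (0.0585).

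GATA3, a luminal factor that is mutated in breast cancer, carried no call by the unpaired test. Its H3K4me3 peak (chr10:8086832-8089350) covers an upstream start and lies 7301 bp from the canonical start, which an H3K27ac peak covers. It had 13.5 and 40.7 CPM in Par, 8.03 and 18.1 CPM in LM2, and 17.0 and 33.3 CPM in BrM2. The 3 lines overlapped, and replicate 2 was above replicate 1 in each. In the paired fit it was lower in LM2 than in Par (log2 fold change unpaired -1.0 ± 0.50, adjusted p = 0.538 unpaired and 0.00666 paired) and higher in BrM2 than in LM2 (unpaired 0.86 ± 0.50, adjusted p = 0.576 unpaired and 0.0108 paired).

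GATA3 had the most H3K27ac peaks, 17, with a sum of 286 and 316 CPM in Par, 240 and 226 CPM in LM2, and 292 and 281 CPM in BrM2. LM2 lay below the other lines. Of the 17, 0 were called by DESeq2 or edgeR in any contrast. In the paired fit 1 was called lower in LM2, against 5.44% of all peaks called. That peak (chr10:8179585) had 81.4 and 94.7 CPM in Par, 57.8 and 58.5 CPM in LM2, and 87.2 and 83.2 CPM in BrM2 (adjusted p = 0.178 unpaired and 0.0404 paired). The widest peak, 13354 bp over the end of the gene (chr10:8106091-8119444), had 114 and 119 CPM in Par, 92.9 and 88.6 CPM in LM2, and 120 and 115 CPM in BrM2, with a log2 fold change of -0.43 ± 0.25 in LM2 (adjusted p = 0.52). The other 110 H3K27ac peaks within 2.5 Mb on each side had a median log2 fold change of -0.30 in LM2.

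**Figure D3:**
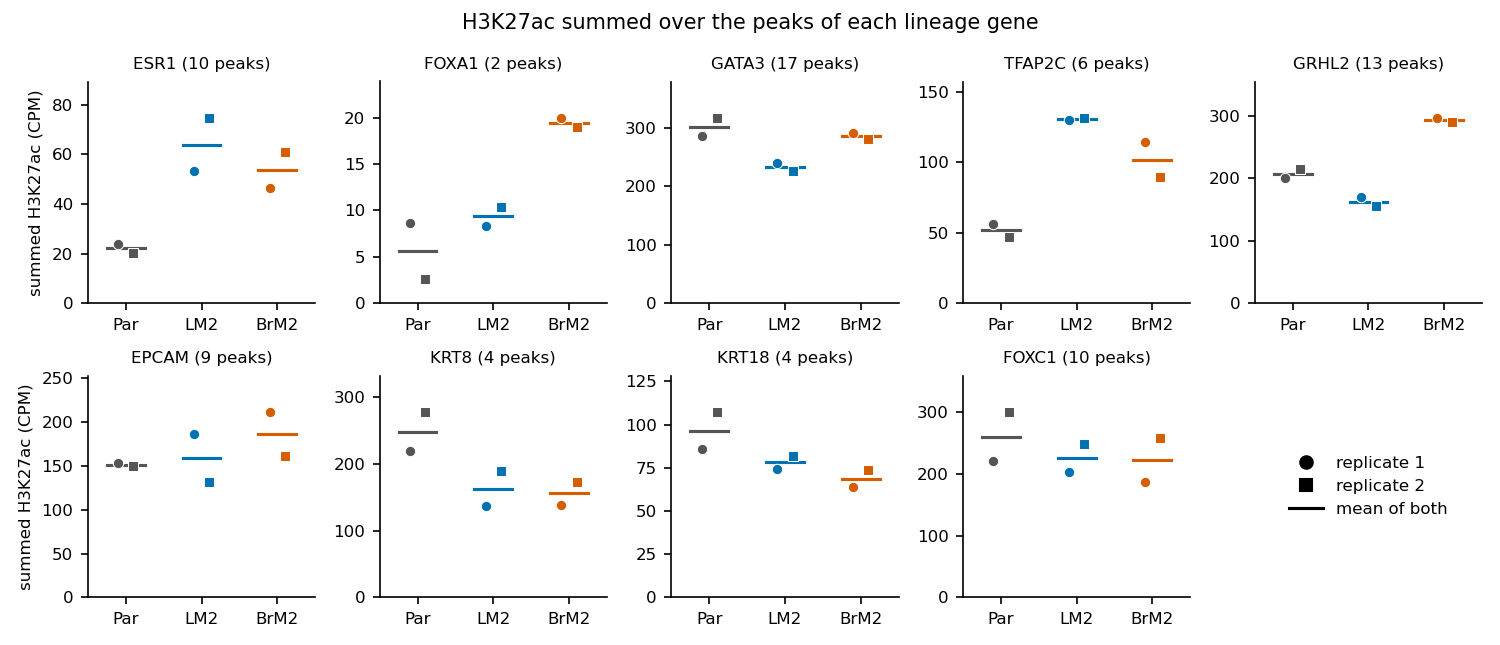
H3K27ac summed over the peaks assigned to each lineage gene (CPM, linear axis from 0, a scale of its own in each panel), with the 2 replicates as points and their mean as a bar. ESR1 and TFAP2C are above Par in both metastatic lines, FOXA1 and GRHL2 are highest in BrM2, and KRT8 and KRT18 are highest in Par; KRT5 had no peak.

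GRHL2, a grainyhead factor that maintains epithelial junctions, differed between the metastatic lines in its distal H3K27ac. Its 13 peaks summed to 200 and 215 CPM in Par, 170 and 156 CPM in LM2, and 296 and 290 CPM in BrM2, so that LM2 lay below Par and BrM2 above it. A domain of 11993 bp upstream, 36099 bp from the nearest start (chr8:102456576-102468568), had 90.8 and 122 CPM in Par, 70.2 and 64.6 CPM in LM2, and 143 and 148 CPM in BrM2. It was higher in BrM2 than in LM2 by 1.18 ± 0.27 (2.26-fold, adjusted p = 0.00175). Set against Par, the domain had a log2 fold change of -0.72 ± 0.27 in LM2 (adjusted p = 0.126, and 0.0204 when paired) and 0.45 ± 0.27 in BrM2 (adjusted p = 0.435). The difference between BrM2 and LM2 was lost without any 1 of their 4 libraries (adjusted p from 0.0967 to 0.174).

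A neighbouring upstream peak of GRHL2 (chr8:102470767-102472979) had 8.44 and 8.61 CPM in Par, 12.4 and 10.6 CPM in LM2, and 25 and 19 CPM in BrM2. It rose by 1.38 ± 0.42 in BrM2 (2.61-fold, adjusted p = 0.0238), a call lost without any 1 of the 6 libraries (adjusted p from 0.0625 to 0.595) and with window medians removed (adjusted p = 0.14). Among the 13 peaks of GRHL2, 12 had a positive log2 fold change in BrM2 against Par. Their median was 0.58, against -0.015 over all peaks. Of the 13, 1 was called, where 5.29% of all tested peaks were. The other 132 H3K27ac peaks within 2.5 Mb on each side had a median of 0.21. A peak 22918 bp from a start within the gene (chr8:102619071-102621536) had 13.2 and 13.3 CPM in Par, 9.61 and 9.84 CPM in LM2, and 20.9 and 21.1 CPM in BrM2, and was higher in BrM2 than in LM2 by 1.18 ± 0.40 only when paired (adjusted p = 0.0797 unpaired and 0.0381 paired). The promoter H3K4me3 of GRHL2 (chr8:102504382-102506817) was 10.9 and 11.5 CPM in Par, 13.3 and 25.1 CPM in LM2, and 13.8 and 15.6 CPM in BrM2. Its log2 fold changes of 0.79 ± 0.43 and 0.33 ± 0.43 did not pass the test in either fit. The H3K27ac peak next to the start (chr8:102505127-102507404) had 34.0 and 21.1 CPM in Par, 30.1 and 19.7 CPM in LM2, and 41.3 and 27.6 CPM in BrM2, and the lines overlapped.

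EPCAM encodes an adhesion molecule of epithelial cells. H3K4me3 over its canonical start (chr2:47596027-47597629) was 22.9 and 23.4 CPM in Par, 32.1 and 39.2 CPM in LM2, and 51.9 and 42.4 CPM in BrM2. The lines did not overlap, with BrM2 highest. The log2 fold changes of 0.65 ± 0.37 in LM2 and 0.98 ± 0.37 in BrM2 were called only in the paired fit (adjusted p of 0.718 and 0.149 unpaired, 0.0239 and 0.000238 paired). An H3K4me3 peak at an upstream start (chr2:47570835-47572632) had 13.5 and 18.6 CPM in Par, 11.2 and 12.3 CPM in LM2, and 20.5 and 28.8 CPM in BrM2. It was higher in BrM2 than in LM2 by 0.97 ± 0.40 (adjusted p = 0.236 unpaired and 0.00625 paired).

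Of the 9 H3K27ac peaks of EPCAM, 1 rose in BrM2, where 5.29% of all tested peaks were called. This intergenic peak, 53575 bp upstream (chr2:47516478-47518722), had 13.9 and 14.1 CPM in Par, 32.7 and 14.1 CPM in LM2, and 38.2 and 31.6 CPM in BrM2. It rose by 1.33 ± 0.41 (2.51-fold, adjusted p = 0.0314), and the call was lost without any 1 of the Par and BrM2 libraries (adjusted p from 0.182 to 0.523). The other 180 H3K27ac peaks within 2.5 Mb on each side had a median log2 fold change of 0.55 in BrM2, with 15 called higher and 0 lower, and with window medians removed the peak had a log2 fold change of 0.79 and an adjusted p of 0.426. Over the canonical start, H3K27ac was 27.4 and 20.4 CPM in Par, 27.9 and 20.5 CPM in LM2, and 31.4 and 25.6 CPM in BrM2. These ranges overlapped. The strongest peak (chr2:47495515-47501181) had 36.9 and 38.6 CPM in Par, 38.6 and 42.3 CPM in LM2, and 61.4 and 39.1 CPM in BrM2, and was not called.

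KRT8 and KRT18 encode the keratin pair of simple epithelia and lie next to each other, with starts close enough to share 1 peak of each mark. The shared H3K4me3 peak (chr12:53341733-53345922) had 76.8 and 101 CPM in Par, 59.2 and 77.3 CPM in LM2, and 73.8 and 99.6 CPM in BrM2. It was not called in either fit. H3K4me3 at the canonical start of KRT8 (chr12:53296262-53299418) was 53.6 and 81.6 CPM in Par, 21.8 and 50.3 CPM in LM2, and 43.7 and 62.6 CPM in BrM2. LM2 lay below Par, and its log2 fold change of -0.90 ± 0.38 was called only when paired (adjusted p = 0.305 unpaired and 6.35e-05 paired), as was the 0.49 ± 0.38 of BrM2 against LM2 (adjusted p = 0.783 unpaired and 0.0395 paired). At other starts of KRT8, a peak of 695 bp (chr12:53319752-53320446) had 1.15 and 3.87 CPM in Par, 0 and 1.12 CPM in LM2, and 1.53 and 5.45 CPM in BrM2, with BrM2 above LM2 when paired (adjusted p = 0.312 unpaired and 0.0328 paired). The remaining peak of 787 bp (chr12:53318070-53318856) had 0.230 to 2.23 CPM and was not called.

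H3K27ac over the canonical start of KRT8 fell in both metastatic lines. The peak (chr12:53296244-53304534, 8291 bp) had 62.7 and 85.6 CPM in Par, 33.5 and 44.1 CPM in LM2, and 30.3 and 41.1 CPM in BrM2. Both metastatic lines lay below Par and overlapped each other. It fell by 1.0 ± 0.32 on the log2 scale in LM2 (2.0-fold, adjusted p = 0.0479) and by 1.06 ± 0.33 in BrM2 (2.09-fold, adjusted p = 0.0273). The LM2 call was lost without any 1 of the 6 libraries (adjusted p from 0.0815 to 0.788) and the BrM2 call without 5 of the 6, all but LM2 replicate 2 (adjusted p from 0.0602 to 0.586). The other 153 H3K27ac peaks within 2.5 Mb on each side had a median log2 fold change of -0.23 in each line. With window medians removed, the adjusted p was 0.158 in LM2 and 0.133 in BrM2. The LM2 call was also lost with total-count size factors (0.0692), with loess offsets (0.0887) and with chromosome medians removed (0.0911). A low-count filter (0.051) or no independent filtering (0.0599) ended it as well. The H3K27ac peak shared with KRT18 (chr12:53336304-53345913) had 77.5 and 94.5 CPM in Par, 57.4 and 68.1 CPM in LM2, and 55.3 and 66.2 CPM in BrM2. Par lay above both, and the log2 fold changes of -0.52 ± 0.28 and -0.51 ± 0.29 did not pass the test (adjusted p of 0.448 and 0.402).

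KRT5, the keratin of basal cells, had no peak of either mark. The nearest H3K4me3 peak lay 170648 bp from a KRT5 start, closest to KRT77, with 0 to 2.03 CPM, and the nearest H3K27ac peak lay 156330 bp away, closest to KRT85, with 0.775 to 3.99 CPM. Peaks were called on libraries of all lines together, so a level below what that calling finds is not measured here.

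FOXC1, a forkhead factor of basal-like tumours, had the highest mean H3K4me3 per kb of the 10 genes in each line, overlapping TFAP2C in LM2. Its peak of 7556 bp (chr6:1607796-1615351) covers the whole gene and had 416 and 346 CPM in Par, 424 and 337 CPM in LM2, and 409 and 360 CPM in BrM2. The lines overlapped. Its log2 fold changes were 0.04 ± 0.36 (LM2) and -0.06 ± 0.36 (BrM2), with intervals of 2 SE from -0.68 to 0.75 and from -0.78 to 0.65. In the paired fit the intervals ran from -0.14 to 0.19 and from -0.21 to 0.12. H3K27ac over FOXC1 (chr6:1607492-1615983) was 174 and 252 CPM in Par, 152 and 188 CPM in LM2, and 131 and 201 CPM in BrM2, with log2 fold changes of -0.39 ± 0.30 and -0.36 ± 0.30 that did not pass the test (adjusted p of 0.728 and 0.664). Of its 10 H3K27ac peaks, 0 were called by DESeq2 in either fit. In edgeR, 1 was called higher in LM2 than in Par and 1 lower in BrM2 than in LM2, against 5.14% and 3.89% of all peaks.

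**Figure D4:**
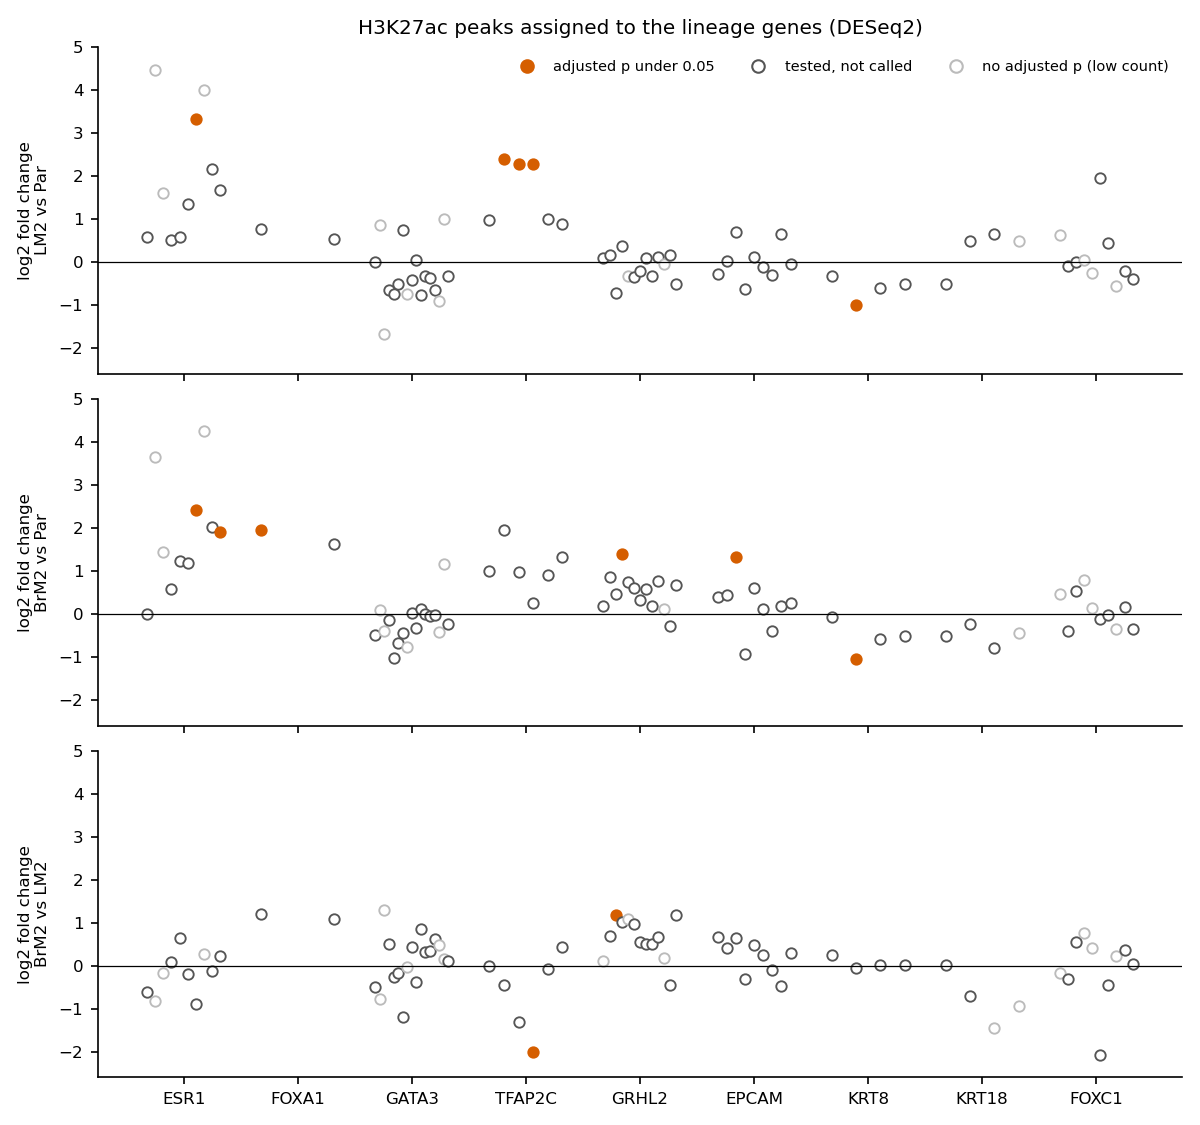
Log2 fold change (DESeq2) of each H3K27ac peak assigned to a lineage gene, in genomic order within a gene, for LM2 against Par, BrM2 against Par and BrM2 against LM2. Filled points have an adjusted p under 0.05, open points were tested and not called, and grey points had too few counts for an adjusted p; the peaks of TFAP2C lie above 0 in LM2 and BrM2 against Par, and those of KRT8 below.

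Counted over all 74 H3K27ac peaks of the lineage genes, 5 were called in LM2 against Par (4 higher and 1 lower) and 6 in BrM2 against Par (5 higher and 1 lower), with 59 and 60 peaks that had an adjusted p. The shares of all tested peaks, given above, were 3.63% and 5.29%. Over all peaks, 1332 calls were higher and 444 lower in LM2, and 1859 and 856 in BrM2. In BrM2 against LM2, 2 of 57 were called, 1 in each direction, against 2.94%. The paired fit called 10, 9 and 3, against 5.44%, 8.13% and 6.17% of all peaks. The median log2 fold change was 0.04, 0.18 and 0.16, against -0.02 over all peaks in each contrast. The calls came from ESR1, TFAP2C, FOXA1, GRHL2, EPCAM and KRT8, and GATA3, FOXC1 and KRT18 had 0 calls of their own.

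Other promoters with a like H3K4me3 pattern were found by the root-mean-square difference of log2 normalized counts, each centred on its own mean over the 6 libraries, among 11795 promoter peaks. Nearest to ESR1 were KSR2 (0.128), PAPPA (0.149) and PIK3CD (0.160). KSR2 had 7.45 and 8.04 CPM in Par, 40.4 and 41.8 CPM in LM2, and 27.7 and 27.5 CPM in BrM2. Nearest to TFAP2C were IGSF3 (0.110), ALKAL2 (0.126) and GALNT16 (0.132), and nearest to FOXA1 were NUP210 (0.0888), HUNK (0.0991) and CNR1 (0.115). For EPCAM they were RAI1 (0.0881), LRRC14 (0.104) and NANOS3 (0.105), for GRHL2 SEPTIN9 (0.104), KCNK4 (0.119) and CACNA1G (0.129), and for the shared KRT8 peak NELFE with SKIC2 (0.0405), HSP90AB1 (0.0424) and ESF1 with NDUFAF5 (0.0437). All these values share the 6 libraries and their depths.

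The wider lineage programmes were followed at promoter H3K4me3 peaks of 3 lists that do not hold the 10 genes. The luminal list had a peak at 29 of 35 genes, 39 peaks in all. In LM2 against Par, 6 of the 39 were called, 2 higher and 4 lower, in BrM2 5, 3 higher and 2 lower, and in BrM2 against LM2 6, 5 higher and 1 lower. Its median log2 fold change was -0.05, 0.04 and 0.12. The paired fit called 10, 10 and 14. The basal list had a peak at 19 of 30 genes, 22 peaks, of which 2, 1 and 0 were called (3, 2 and 5 when paired), with medians of 0.19, 0.01 and -0.12. The claudin-low list had a peak at 16 of 20 genes, 19 peaks, of which 1, 1 and 2 were called (9, 8 and 5 when paired), with medians of 0.02, -0.03 and -0.10. The medians over all H3K4me3 peaks and the shares called were given above. Those shares are of tested peaks. In the unpaired fit 35, 38 and 39 luminal, 20, 22 and 22 basal, and 17, 19 and 19 claudin-low peaks had an adjusted p.

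Luminal promoters that fell in both metastatic lines were those of CLDN4 and KRT7. CLDN4, a tight junction claudin, had 43.6 and 71.3 CPM in Par, 2.75 and 7.42 CPM in LM2, and 9.6 and 19.5 CPM in BrM2, and fell by 3.44 ± 0.46 in LM2 (adjusted p = 7.64e-11) and by 2.04 ± 0.44 in BrM2 (adjusted p = 0.000267). KRT7, a simple keratin, had 114 and 127 CPM in Par, 30.1 and 43.7 CPM in LM2, and 20.1 and 25.8 CPM in BrM2, and fell in both as well (adjusted p of 3.21e-05 and 2.41e-11). These calls held without any 1 library, except that of CLDN4 in BrM2, which was lost without Par replicate 2 or BrM2 replicate 1 (adjusted p from 0.0721 to 0.125).

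A further group of luminal promoters differed between the metastatic lines. EHF, an ETS factor of epithelia, had 22.4 and 47.7 CPM in Par, 2.3 and 7.93 CPM in LM2, and 23.4 and 40.4 CPM in BrM2. It fell by 2.71 ± 0.49 in LM2 (adjusted p = 1.05e-05) and was higher in BrM2 than in LM2 by 2.53 ± 0.49 (adjusted p = 3.66e-05). SPDEF, another ETS factor, had 2.58 and 10.4 CPM, 0.230 and 1.42 CPM, and 6.11 and 14.6 CPM in the same order of lines, and was lower in LM2 than in Par (adjusted p = 0.0221) and than in BrM2 (adjusted p = 0.00104). PGR, the progesterone receptor, CLDN7, a claudin, and ESRP2, an epithelial splicing factor, were higher in BrM2 than in LM2, by 2.5 ± 0.54, 1.54 ± 0.34 and 1.36 ± 0.35 (adjusted p of 0.000433, 0.000501 and 0.00644). CLDN7 was also higher in BrM2 than in Par (adjusted p = 0.00754), as was TFAP2B, an AP-2 paralogue of TFAP2C, with 0.287 and 1.79 CPM in Par and 8.29 and 6.82 CPM in BrM2 (adjusted p = 0.0282). OVOL2 and ST14 were also called, both with the higher level in LM2. OVOL2 was higher in LM2 than in Par by 1.18 ± 0.35 (adjusted p = 0.0305). ST14 was lower in BrM2 than in LM2 by -1.37 ± 0.41 (adjusted p = 0.0324). The ST14 call was lost with total-count size factors (adjusted p = 0.0934), and both calls were lost without any 1 of the 6 libraries. The calls against LM2 were lost for PGR without either BrM2 library (adjusted p from 0.0606 to 0.0641), for CLDN7 without BrM2 replicate 1 (0.108), for SPDEF without LM2 replicate 2 or BrM2 replicate 2 (0.0869 to 0.331) and for ESRP2 without any 1 of the 4 libraries (0.0566 to 0.319). The call of EHF against Par was lost without Par replicate 2 (0.065), that of CLDN7 without any 1 of the 4 libraries (0.0705 to 0.352), that of SPDEF without Par replicate 2, BrM2 replicate 2 or either LM2 library (0.0853 to 1), and that of TFAP2B without any 1 library but LM2 replicate 1 (0.0554 to 0.621). The calls of SPDEF and TFAP2B against Par were also lost in edgeR and with total-count size factors, and that of SPDEF with window medians removed (adjusted p from 0.0642 to 0.113).

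In the basal list, BCL11A, a zinc finger factor of basal-like tumours, had 86.0 and 91.0 CPM in Par, 177 and 196 CPM in LM2, and 302 and 298 CPM in BrM2, and rose by 1.11 ± 0.31 and 1.70 ± 0.31 (adjusted p of 0.0181 and 5.28e-06). ID4 had 91.7 and 91.4 CPM in Par, 217 and 184 CPM in LM2, and 191 and 173 CPM in BrM2, and rose in LM2 by 1.18 ± 0.34 (adjusted p = 0.0263). The calls of BCL11A and ID4 in LM2 were lost without any 1 of the Par and LM2 libraries (adjusted p up to 0.533 and 0.892) and in edgeR, while that of BCL11A in BrM2 held. In the claudin-low list, SPARC, a matrix protein, was picked by the study as an example from these libraries and is no independent evidence. Its promoter had 0.287 and 1.49 CPM in Par, 32.8 and 56.2 CPM in LM2, and 6.55 and 10.0 CPM in BrM2. TGFBI was lower in BrM2 than in LM2 by -2.67 ± 0.45 (adjusted p = 6.85e-07).

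**Figure D5:**
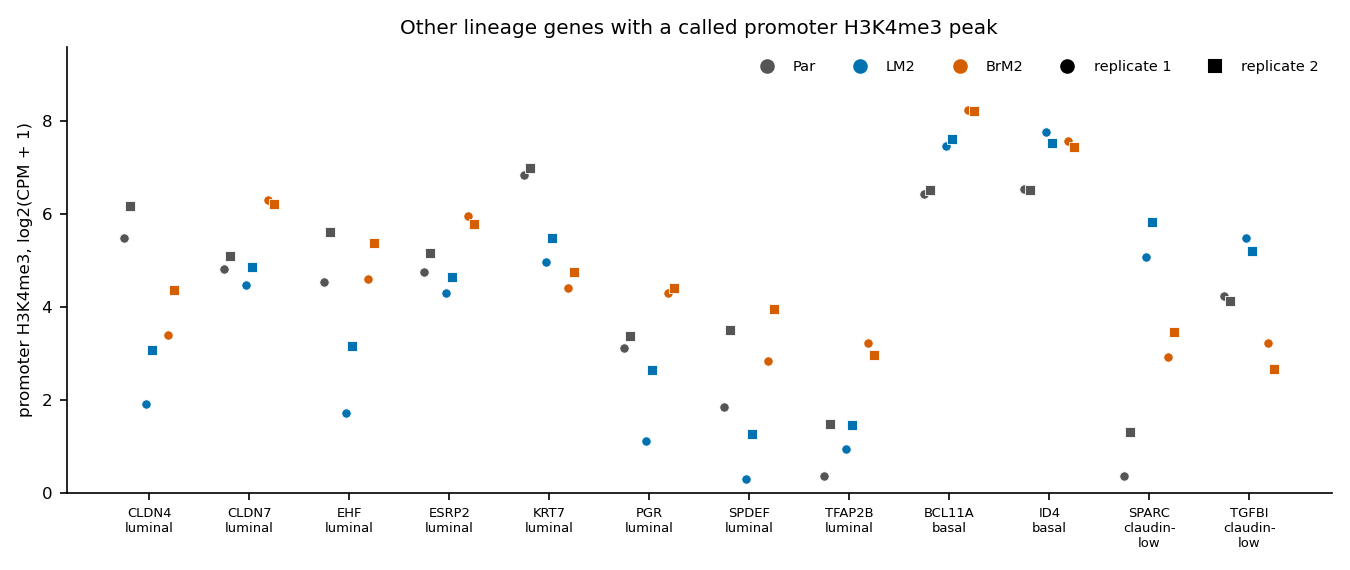
Promoter H3K4me3, as log2(CPM + 1), of luminal, basal and claudin-low list genes with a called H3K4me3 peak, with 1 point per library, grey for Par, blue for LM2 and orange for BrM2. BCL11A lies above Par in all 4 metastatic libraries, CLDN4 and KRT7 lie below, and EHF, PGR and SPDEF are lowest in LM2.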

How the data were processed

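Per the labels, cells grew with 10% serum for 3 days, and were fixed in 1% formaldehyde. The authors aligned reads to hg19 with Bowtie2 2.3.4.3, marked duplicates with Picard, called broad consensus peaks with MACS2 2.1.2 on the merged libraries of a mark, and counted reads per peak with featureCounts. The deposited values are raw read counts per peak, with 1 column per library. Merged calling can under-represent a region marked in 1 line. Of 15 samples, 12 had counts, and the 3 inputs were not analysed here. Groups came from the sample titles, and 0 count columns were left unmatched.

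From these counts, CPM was computed on the reads in peaks of a library. Lines were compared with the DESeq2 1.42.0 Wald test (R 4.3.3, cell line as the only term, unshrunken log2 fold changes, size factors by the median of ratios, default independent filtering, Benjamini-Hochberg adjustment over all peaks of a mark). Peaks with an adjusted p under 0.05 were called, and errors are SE of the fit. Starts came from GENCODE in hg19 coordinates, canonical starts from its canonical transcripts, and sequences from the GRCh37 genome. The genes and lists were chosen with earlier results of these data known. All member H3K4me3 peaks are named, and of the H3K27ac peaks of a gene the nearest, the strongest and up to 4 called ones. A peak called only when paired was named because the pairing changed its call. From each list, up to 5 genes per contrast with a called promoter H3K4me3 peak are named. OVOL2 and ST14, which ranked 6 in a contrast, are named in addition. Some items are not reported here.

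Same-numbered libraries of different lines deviated together, with r = 0.659, 0.631 and 0.677 over 17558 H3K4me3 peaks and r = 0.273, 0.352 and 0.302 over 45448 H3K27ac peaks (Par with LM2, Par with BrM2, LM2 with BrM2). The pairing rests on the replicate numbers in the titles and these correlations, as no batch or day is given by the labels, so the fit with a replicate block is given beside each call it changes. Alternatives were edgeR 4.0.16 (quasi-likelihood, TMM) with and without the block, other size factors, removal of chromosome or 5 Mb window medians, other count filters and distances, and leaving out each library.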

Additional observations from a re-analysis of the deposited data

Results flagged for a closer look

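The change from Par differed between LM2 and BrM2 at 3 peaks, by the direct test of BrM2 against LM2. These were 1 of 13 H3K4me3 and 2 of 57 tested H3K27ac peaks, where 3.18% and 2.94% of all tested peaks were called. Each of these calls was lost in some of the fits without 1 library, as given above. At the weaker H3K4me3 peak of FOXA1, the log2 difference was 3.95 ± 0.93 (DESeq2, adjusted p = 0.00157). At the H3K27ac peak 75832 bp from the TFAP2C start it was -2.01 ± 0.54 (adjusted p = 0.0118). At the upstream H3K27ac domain of GRHL2 it was 1.18 ± 0.27 (adjusted p = 0.00175). With 2 replicates per line and mark, no single library could be tested for standing apart from its group.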

How the results depend on the processing

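No named result changed direction while called. With the replicate block, 6, 4 and 7 H3K4me3 peaks of the lineage genes were called (LM2 and BrM2 against Par, BrM2 against LM2; 2, 2 and 1 unpaired) and 10 H3K27ac peaks in LM2 (5 unpaired). edgeR with the block called 10, 7 and 9 H3K4me3 and 16, 17 and 10 H3K27ac peaks, where it called 26.2%, 33.3% and 38.6% of all H3K4me3 and 13.2%, 15.9% and 12.5% of all H3K27ac peaks. edgeR without it called 1 H3K4me3 and 11 H3K27ac peaks in LM2, against 1.61% and 5.14% of all. Loess offsets gave 4 H3K4me3 peaks in BrM2, against 5.22% of all. With window medians removed, 2 H3K27ac peaks were called in BrM2, against 3.72% of all, and with the block added, 4 and 3 H3K4me3 peaks in LM2 and in BrM2 against LM2, against 7.7% and 10.9%. Counting only the 5′ end of a gene record as its start gave 1, 1 and 0 H3K4me3 and 3 H3K27ac peaks in BrM2. A limit of 50 kb gave 3 H3K27ac peaks in LM2 and 1 in BrM2 against LM2. Both settings change which peaks are counted but keep the main fit, so the shares of all peaks called are those of the main test. Without 1 library, as many or fewer peaks of the lineage genes were called in each contrast. The share of all peaks called in those fits is not given, so such losses are not shown to be particular to these genes. A lone sample is then assumed to vary like the others. The causes were not tested. Of 18 calls at named peaks, 1 held under all 17 alternatives, ESR1 H3K4me3 in LM2. The block ended none of the 18 and changed no other call at the 10 genes than those given above. Of 37 promoter calls in the 3 lists, 11 held under all alternatives. Peaks with few reads, such as those of ESR1 in Par, limit the precision.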

Other observations

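Promoter H3K27ac was read for the same 3 lists, and the genes are named here after their values were seen. In LM2 against Par, BrM2 against Par and BrM2 against LM2, 1, 3 and 2 of the 46 luminal peaks, 0, 1 and 1 of the 34 basal peaks and 3, 1 and 1 of the 33 claudin-low peaks were called (4, 5 and 3, then 1, 1 and 2, then 5, 3 and 1 when paired). Of all tested H3K27ac peaks, 3.63%, 5.29% and 2.94% were called (5.44%, 8.13% and 6.17% when paired). In the unpaired fit 39, 40 and 37 luminal, 29, 29 and 28 basal, and 27, 27 and 27 claudin-low peaks had an adjusted p. In the luminal list, EHF was lower in LM2, with 49.0 and 48.8 CPM in Par, 22.8 and 18.3 CPM in LM2, and 45.4 and 51.1 CPM in BrM2 (DESeq2, adjusted p = 0.00182 against Par). TFAP2B was higher in BrM2, with 2.05 and 1.57 CPM in Par, 0.465 and 0.798 CPM in LM2, and 6.63 and 15.5 CPM in BrM2 (adjusted p = 0.012 against Par). KRT7 and MUC1 were lower in BrM2 than in Par, by -1.18 ± 0.32 and -1.01 ± 0.31 (adjusted p of 0.0082 and 0.0247). In the basal list, BCL11A had 14.4 and 8.09 CPM in Par, 16.9 and 19.1 CPM in LM2, and 67.3 and 55.1 CPM in BrM2, and rose in BrM2 by 2.45 ± 0.37 (adjusted p = 1.38e-08).

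In the claudin-low list, CAV2, a caveolin, was lower in both metastatic lines, with 66.6 and 74.6 CPM in Par, 31.8 and 41.2 CPM in LM2, and 28.5 and 39.1 CPM in BrM2 (adjusted p of 0.0313 and 0.0194). With 5 Mb window medians removed, its log2 fold changes went from -1.02 and -1.07 to -0.40 and -0.39 and neither call held (adjusted p of 0.847 and 0.737), nor did they with chromosome medians removed (0.284 and 0.16), and the LM2 call was lost with loess offsets (0.062). CDH11, a mesenchymal cadherin, was lower in LM2 alone of the 2 lines, with 20.1 and 18.0 CPM in Par, 6.05 and 7.45 CPM in LM2, and 17.6 and 19.0 CPM in BrM2 (adjusted p = 0.00679 against Par and 0.0164 for BrM2 against LM2). PRRX1, a mesenchymal homeobox factor, was higher in LM2, with 2.74 and 2.35 CPM in Par and 8.84 and 11.4 CPM in LM2 (adjusted p = 0.0319). In BrM2 it had 8.16 and 6.02 CPM, also above both Par libraries, and was not called. Of these H3K27ac calls, that of BCL11A held without any 1 library. Those of EHF and CDH11 against Par and of CAV2 in BrM2 were lost without any 1 of the 4 libraries compared, and those of CAV2 and PRRX1 in LM2 without any 1 of the 6. MUC1 was lost with window medians removed (log2 fold change -0.72, adjusted p = 0.171) and without any 1 library but Par replicate 1, KRT7 without Par replicate 2 or either BrM2 library, TFAP2B without either Par library or BrM2 replicate 1, and CDH11 against LM2 without any 1 but Par replicate 2. For TFAP2B, only 5 of the 6 fits without a library gave an adjusted p. The adjusted p without a library ran up to 0.71 (CAV2 in LM2).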
